A study of Homo sapiens with 3 samples.

Results

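The major histocompatibility complex (MHC) on the short arm of chromosome 6 was examined for H3K36me3, the trimethylation of histone H3 on lysine 36, in LNCaP cells, a prostate cancer line that responds to androgen. Its members were all deposited peaks that overlap hg19 chromosome 6 from 29600000 to 33400000. This gave 225 of 117564 peaks on nuclear chromosomes in untreated cells and 261 of 131798 peaks in cells given 100 nM dihydrotestosterone (DHT, a potent androgen) for 4 h. The region was divided by position into class I (29.60 to 31.40 Mb), class III (31.40 to 32.20 Mb), class II (32.20 to 33.10 Mb) and the extended class II end (33.10 to 33.40 Mb). A peak belongs to the division that holds its midpoint, and no peak crosses the outer edges.

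The MHC is named for the molecules that display peptides to T cells. The class I division holds genes such as HLA-B and HLA-C, whose products present peptides from inside the cell on nearly all nucleated cells, among many genes with general functions such as TUBB (a tubulin), FLOT1 (a membrane scaffold protein) and ABCF1 (a translation factor). Class II genes such as HLA-DRA, HLA-DQA1 and HLA-DPB1 encode molecules that present taken-up peptides, mainly on professional antigen-presenting cells. The same division holds TAP1, TAP2, PSMB8 and PSMB9, which make and transport peptides for class I molecules. Class III lies between them and encodes neither kind of molecule. It holds complement genes (C2, CFB, C4A, C4B), cytokines (TNF, LTA, LTB) and housekeeping genes such as DDX39B (an RNA helicase of mRNA export), BAG6 (a chaperone) and EHMT2 (a histone H3 lysine 9 methyltransferase). The extended class II end holds RXRB (a nuclear receptor), RING1 (a Polycomb protein), TAPBP (which loads peptide on class I molecules) and DAXX (a histone chaperone). H3K36me3 is written by SETD2, which travels with elongating RNA polymerase II, so the mark is typically found along transcribed genes and towards their distal ends.

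In the RefSeq order of GRCh38.p14, the stretch from ZFP57 to MICA, which makes up most of class I, has 49 protein-coding genes and 60 pseudogenes. That from MICB to NOTCH4, most of class III, has 60 protein-coding genes and 9 pseudogenes. From TSBP1 to HLA-DPB1, in class II, there are 20 and 9, and from COL11A2 to CUTA, in the extended class II end, 18 and 6. The round division edges need not fall at these landmark genes. Peaks carry hg19 positions and no hg19 annotation was used, so no peak was assigned to a gene, prostate and blood cell markers were not checked, and the text names regions by position.

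The untreated library is labelled as having no treatment, and the DHT library as treated in red-free RPMI, so the hormone and a change of medium cannot be told apart. Each condition has 1 library. No test between conditions is therefore possible and no p-value is given. Intervals are 95% and cover counting error only, with peaks taken as independent, which neighbours are not. The number of reads behind each list is not given in the sources used here. Scores are the authors' own, on a scale not stated, and percentiles rank a peak within its own list.

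The MHC was densely marked for its length, with sharp contrasts between its divisions. Untreated peaks covered 249990 bp, or 6.58% of the region, and DHT peaks 211834 bp, or 5.57%. All nuclear chromosomes together were at 2.08% and 2.13%, and chromosome 6 outside the MHC at 1.43% in either library. Among 801 whole tiles of 3.8 Mb over the genome, 32 were more covered than the MHC in untreated cells and 64 after DHT. Both counts include the chromosome 6 tile from 30400001 to 34200000, which is mostly MHC sequence. In untreated cells the extended class II end had the highest covered share, 13.9%, and class III followed with 11.2%. After DHT class III had the highest, 10.3%, and the extended class II end was at 10.04%. Class I came next in both libraries with 5.74% and 4.91%, and class II was the least covered with 1.74% and 1.22%. Class II was thus below the genome's covered share in both libraries, between neighbours that were far above it.

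**Figure D1:**
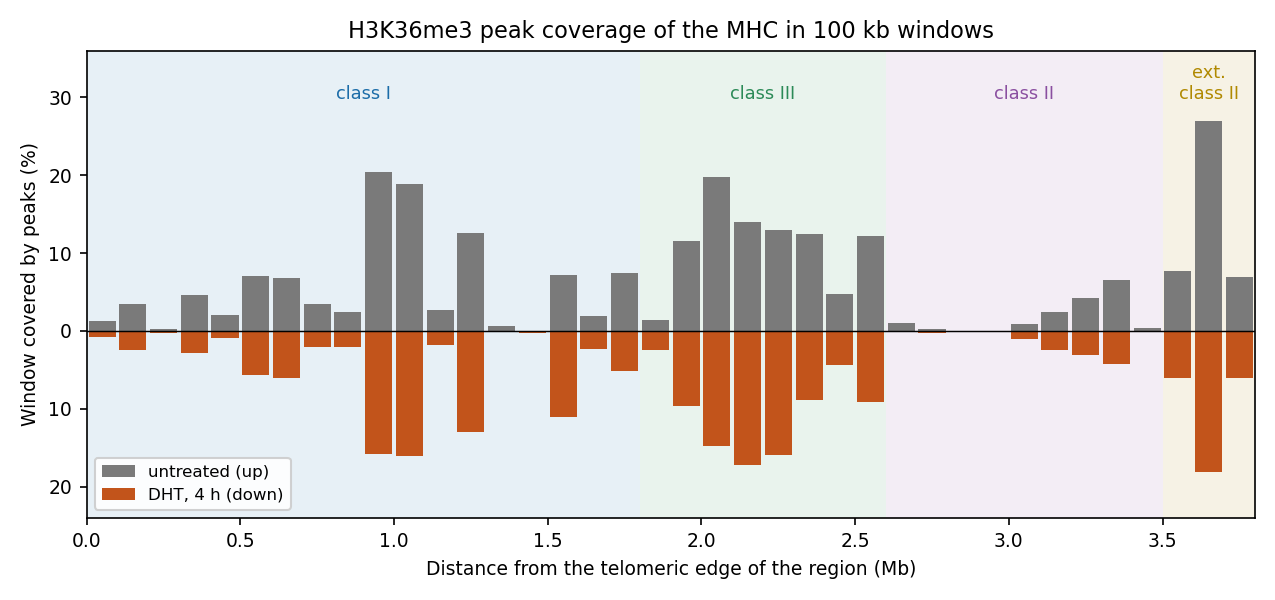
Share of each 100 kb window of the MHC covered by peaks (%, untreated upwards, DHT downwards) against distance from the telomeric edge of the region (Mb), with the divisions shaded. Coverage is concentrated in a few class I windows, most of class III and the middle window of the extended class II end, which reached 26.9% in untreated cells, and is near or at 0 over the first part of class II.

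Within class I the mark was concentrated in its middle. The window from 30500001 to 30600000 was covered over 20.5% in untreated cells and 15.8% after DHT. The next window, from 30600001, was at 18.9% and 16.1%, and that from 30800001 at 12.6% and 12.9%. In contrast, the window from 29800001 was at 0.317% and 0.211%, and that from 31000001 was at 0 in untreated cells and 0.228% after DHT. These 3 dense windows were at least 10% covered in both libraries, and after DHT the window from 31100001 was as well.

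Class III had marked windows on most of its length, with empty stretches between them, the longest within it 63242 bp after the peak that ends at 31964493. Of its 8 windows, 6 were covered over at least 10% in untreated cells and 3 after DHT. The highest in untreated cells was that from 31600001, at 19.8%, which was at 14.7% after DHT. After DHT the highest was that from 31700001, at 17.3%, against 14.1% in untreated cells. The lowest in both libraries was the first one, from 31400001, at 1.48% and 2.42%.

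Class II held the longest stretch without a peak of either library, 247112 bp from 32379364 to 32626475. The second longest, 123302 bp from 32949079 to 33072380, and the fourth, 118987 bp from 32255051 to 32374037, also lay there. The third, from 29738986 to 29861197, and the fifth, from 30749775 to 30857693, lay in class I and were 122212 and 107919 bp long. Most class II peaks, 21 of 28 in untreated cells and 15 of 20 after DHT, lay from 32796395 onwards. Its most covered block by the summed length of both libraries (neighbouring peaks from either list joined where gaps are 5 kb or less) ran from there to 32803762, with 3459 bp covered in untreated cells and 3110 bp in treated ones. In untreated cells alone, the block from 32939838 to 32949078 was more covered, with 3778 bp. Between the long empty stretches, the block from 32626476 to 32629962 had 883 bp covered in untreated cells and 1070 bp in treated ones.

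In the extended class II end the window from 33200001 to 33300000 was the most covered of the whole MHC in both libraries, at 26.9% and 18.2%. The least covered windows of the MHC, with no peak in either library, were those from 32400001 and 32500001, in class II.

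After DHT the MHC had more peaks over less sequence. The number of peaks was 1.16 times as high (0.971 to 1.39) and covered length was 0.847 times as high (0.670 to 1.07), so neither interval excluded equality. The corresponding ratios over all nuclear chromosomes were 1.12 and 1.03 (1.01 to 1.04), and on the rest of chromosome 6 they were 1.10 and 0.9997 (0.953 to 1.05). Covered length was lower after DHT in all 4 divisions, with ratios of 0.922 in class III (0.608 to 1.40), 0.855 in class I (0.595 to 1.23), 0.725 in the extended class II end (0.415 to 1.27) and 0.700 in class II (0.360 to 1.36). Each of these intervals included 1. Direction depended on the setting in 2 divisions: the class I ratio was 1.18 when each list was first joined at gaps of up to 5 kb, and the class II ratio was 1.07 in the higher-scoring 50% of each list and 1.28 at scores of at least 100.

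The neighbouring sequence did not share 1 direction with the MHC. In the 3.8 Mb on the telomeric side the covered length ratio was 0.948 (0.755 to 1.19), from 2.61% to 2.47%. In the 3.8 Mb on the centromeric side it was 1.14 (0.929 to 1.41), from 5.21% to 5.96%. Of 495 tiles of 3.8 Mb with at least 1% covered, 55.2% had a ratio below 1 and 65 had one below that of the MHC. The tiles ran from 0.654 to 1.54 with a median of 0.989.

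**Figure D2:**
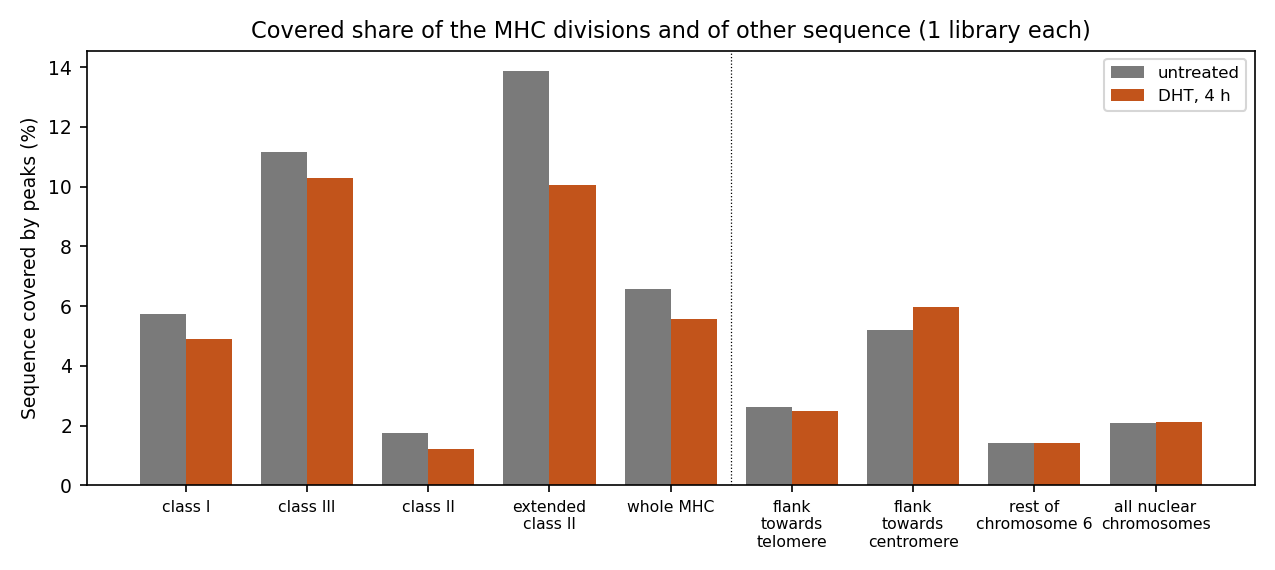
Sequence covered by peaks (%) in untreated cells (grey) and after DHT (orange), 1 library each, in the MHC divisions, the whole MHC, the 3.8 Mb on either side, the rest of chromosome 6 and all nuclear chromosomes. Class III and the extended class II end stand above 10% in both libraries and class II below the genome's covered share.

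Over the whole MHC, the lower covered length after DHT lay within peaks that had a counterpart, not in peaks without one. Peaks with no overlapping peak in the other list covered 45.1 kb in untreated cells and 49.1 kb after DHT. In contrast, the parts of overlapped peaks left uncovered by the other list came to 60.0 kb without and 17.9 kb with DHT. These edge lengths hold both ends that reach beyond a counterpart and gaps between counterparts of the same peak. The ratio of these edge lengths was 0.298 (0.153 to 0.581) in the MHC, 0.460 (0.411 to 0.516) on the rest of chromosome 6 and 0.571 over all nuclear chromosomes. The interval of the MHC therefore included the value of the rest of its chromosome and of the genome. The edge ratio was 0.116 at scores of at least 100. It was 0.841 (0.446 to 1.59) with each list joined at gaps of up to 5 kb, an interval that includes equality. Genome values of the edge ratio at that score limit and after joining were not computed. By division, with all peaks and no joining, the edge ratio was 0.183 (0.0849 to 0.393) in class I and 0.175 (0.0543 to 0.566) in the extended class II end. It was 0.253 (0.0550 to 1.16) in class II and 0.485 (0.172 to 1.37) in class III. Peaks without a counterpart covered more after DHT in class I and class III. They covered less in class II, 4.71 kb against 8.32 kb in untreated cells, and in the extended class II end, 1.23 against 4.21 kb. In class II the edge lengths came to only 1.47 kb in untreated cells and 0.372 kb after DHT. Most of the lower covered length of class II thus lay in peaks without a counterpart.

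More DHT peaks lay wholly inside an untreated peak than the reverse. Of the 261 DHT peaks, 92 (35.2%, 29.7% to 41.2%) were wholly inside an untreated peak, against a background of 18.8% of all DHT peaks. Of the 225 untreated peaks, 17 (7.56%) were wholly inside a DHT peak, against 8.60%. The share of DHT peaks inside untreated ones was 54.1% in the extended class II end, 33.8% in class III, 31.5% in class I and 30.0% in class II. A peak can only lie inside a wider one, and MHC peaks were wide: their median width was 775 bp without and 566 bp with DHT, against 374 and 354 bp in the full lists.

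Pairs of peaks that overlapped only each other gave the comparison most directly. There were 111 such pairs in the MHC, and the DHT peak was the narrower in 86 of them (77.5%, 68.9% to 84.3%), against a background of 63.2%. The median width was 1054 bp for the untreated and 778 bp for the DHT peak, and the median ratio of widths was 0.786, against 0.907 over all pairs of the genome. The DHT peak was narrower in 44 of 52 pairs in class I, 19 of 27 in class III, 7 of 8 in class II and 16 of 24 in the extended class II end. Sorted by the mean width of the pair, the DHT peak was narrower in 81.8% of MHC pairs under 500 bp (61.5% to 92.7%), 80.0% of those from 500 bp to under 1 kb (65.2% to 89.5%) and 73.5% of those of at least 1 kb (59.7% to 83.8%). In the genome these shares were 61.9%, 67.2% and 59.7%, at or near the lower bound of the MHC intervals. With each list joined first, the share in the MHC was 67.6% at 1 kb and 60.0% (47.9% to 71.0%) at 5 kb. The genome's share after joining was not computed.

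**Figure D3:**
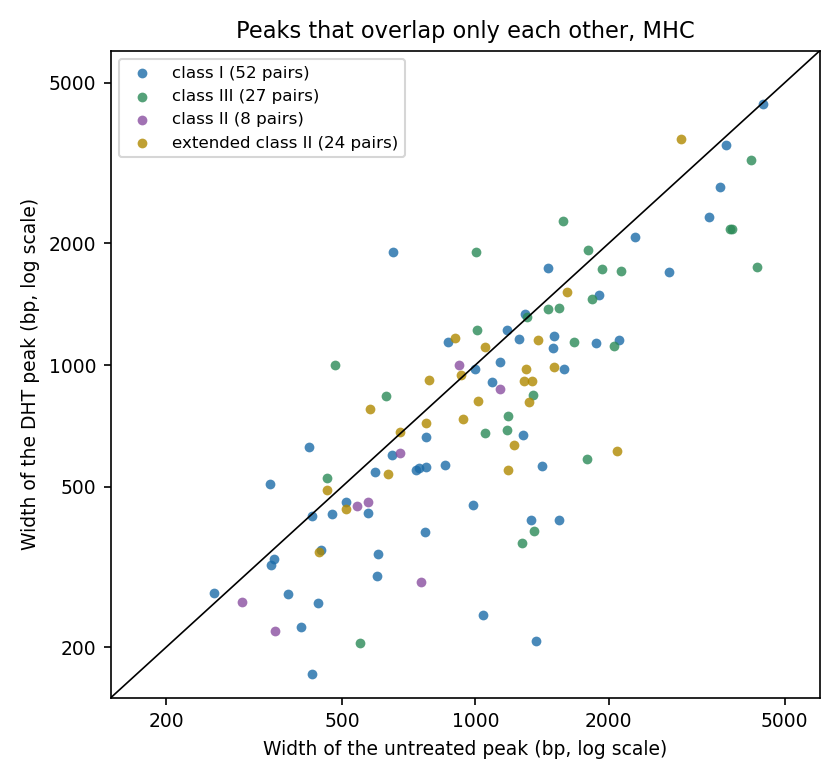
Width of the DHT peak against width of the untreated peak (bp, log scales) for the 111 MHC pairs that overlap only each other, coloured by division. Points under the line of equal width, 86 of them, are pairs in which the DHT peak is narrower.

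The widest peaks were fewer after DHT. In untreated cells 30 MHC peaks were at least 2 kb wide and covered 93.8 kb, and after DHT 16 such peaks covered 46.3 kb. This ratio of 0.493 had an interval of 0.262 to 0.928. It was 0.715 on the rest of chromosome 6 and 0.931 over all nuclear chromosomes, the latter just outside the interval of the MHC. In the higher-scoring 50% of each list it was 0.508, with an interval of 0.258 to 1.00007, and for peaks of at least 3 kb it was 0.422 (0.160 to 1.11). Peaks under 500 bp were more numerous after DHT, 108 against 70, as were those from 500 bp to under 1 kb, 89 against 63. In the full lists there were 96318 against 79539 under 500 bp, also more after DHT, but 25171 against 25967 from 500 bp to under 1 kb.

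Most wide untreated peaks had a counterpart after DHT, and some had several. Of the 30 untreated peaks of at least 2 kb, 28 were overlapped by a DHT peak, near the background of 91.2%, and 13 were overlapped by 2 or more, against a background of 28.1%. Of the 16 wide DHT peaks, 15 had an untreated counterpart (background 76.7%) and 1 had 2 or more (background 8.96%). The widest untreated peak of class I, from 30568328 to 30573460 with a score of 349, was overlapped by 2 DHT peaks over 60.3% of its 5133 bp. That of class III, from 32134673 to 32139344 with a score of 231, was overlapped by 2 over 65.1% of its 4672 bp. That of the extended class II end, from 33232872 to 33236586 with a score of 140, was overlapped by 2 over 35.2% of its 3715 bp. In class II the widest untreated peak, also the highest in score there (219), ran from 32797309 to 32798708 and was overlapped by 2 over 85.5% of its 1400 bp. Choosing the widest untreated peaks favours partial cover by the other list. The widest DHT peak of class I, from 30887414 to 30891850 with a score of 269, was 4437 bp wide. It lay wholly inside an untreated peak of 4467 bp and covered 99.3% of it. Over peaks of any width, 22 untreated ones (9.78%) were overlapped by 2 or more DHT peaks, against 3.18% of the full list, and 8 DHT ones (3.07%) by 2 or more untreated peaks, against 1.13%.

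The shares of MHC peaks with a counterpart in the other library were above those of the full lists. An untreated peak was overlapped by a DHT peak in 145 of 225 cases (64.4%, 58.0% to 70.4%), against a background of 52.3%. A DHT peak was overlapped by an untreated one in 163 of 261 (62.5%, 56.4% to 68.1%), against 48.5%. Overlapped peaks of the full lists had the higher median score (97.4 against 70.3 in untreated cells, 113 against 72.5 after DHT), and in the MHC 44.4% of untreated and 36.8% of DHT peaks were in the top 25% of their list by score. The part of score and width in the MHC's shares was not tested. Shares were highest in the extended class II end, 82.9% of 35 untreated and 89.2% of 37 DHT peaks. They were 69.8% of 63 and 66.2% of 80 in class III, 62.6% of 99 and 54.0% of 124 in class I, and 35.7% of 28 untreated and 10 of 20 DHT peaks in class II. Sequence covered in both libraries was 144.9 kb, or 45.7% of what either covered, against 32.5% in the genome.

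Overlapped and other members differed in width and score. In untreated cells the 145 overlapped peaks had a median width of 1167 bp and a median score of 140, and the other 80 had 419.5 bp and 70.8. After DHT the 163 overlapped peaks had 812 bp and 138, and the other 98 had 359 bp and 71.9. The highest scores belonged to peaks found in both libraries. In class I these were the untreated peak from 30261445 to 30262724, with a score of 689, and the DHT peak from 30864213 to 30867713, with a score of 728, which lay wholly inside an untreated peak. In class III the highest in both libraries were counterparts of each other, from 31947688 to 31948316 in untreated cells (score 390) and from 31947775 to 31948614 after DHT (score 665). In the extended class II end they were the untreated peak from 33161956 to 33163939, with a score of 586, and the DHT peak from 33260763 to 33261913, with a score of 384.

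The exception was class II. Its widest and highest-scoring DHT peak, from 32939838 to 32941268, had a score of 515, at percentile 99.4 of the DHT list, and no untreated peak overlapped it. The nearest untreated peak began at 32942114 and had a score of 147. Class II was also the division with fewer peaks after DHT, 20 against 28, a ratio of 0.714 (0.402 to 1.27). At scores of at least 100 this ratio was 1.5 (0.674 to 3.34), and in the higher-scoring 50% of each list it was 1.23 (0.592 to 2.56). Median scores of the full lists were 81.2 in untreated cells and 85.7 after DHT, so a fixed score need not cut both lists alike. The genome's ratio at that score was not computed.

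Joined into blocks across gaps of 5 kb or less, as above, the peaks of the MHC gave 109 blocks, of which 75 contained peaks of both libraries, 18 (16.5%) only untreated and 16 (14.7%) only DHT peaks. In the genome 20.7% of blocks had only untreated and 26.3% only DHT peaks. Blocks with peaks of 1 library were short, the longest spanning 3929 bp. Every block that spanned 10 kb or more (20 of 20) had peaks from each library, against 99.6% in the genome. In 17 blocks, 5 kb or more was covered in untreated or treated cells. None was 2-fold higher and none 2-fold lower after DHT, against backgrounds of 9.63% and 3.12% of 2980 such blocks in the genome. Their ratios ran from 0.602 to 1.97. The 5 kb were reached in both libraries in 11 of the 17, in untreated cells alone in 4 and after DHT alone in 2, and a block that passed through 1 library had to be higher there. With the 5 kb required of the mean of both libraries, 11 of 14 blocks were less covered after DHT, against 52.8% in the genome, and the median ratio was 0.786, against 0.975. These counts are small, and in the higher-scoring 50% of each list 1 of 11 blocks was 2-fold higher and 2 were 2-fold lower. The genome's shares in that setting were not computed.

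**Figure D4:**
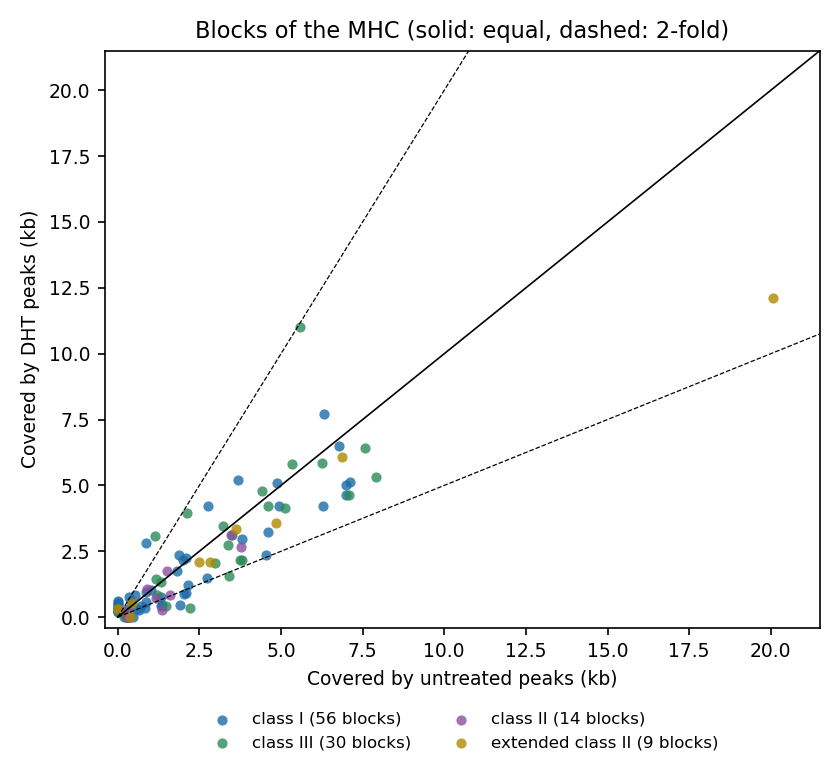
Length covered by DHT peaks against length covered by untreated peaks (kb) in the 109 MHC blocks, coloured by division, with lines of equality and of 2-fold difference. The largest block, in the extended class II end, lies under equality at 20.1 and 12.1 kb, and a class III block lies just inside the 2-fold line at 5.58 and 11.02 kb.

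The blocks at the ends of that range were, by the summed length of both libraries, the most covered of their divisions. The block from 33218239 to 33263809, in the extended class II end, was the longest of the MHC at 45571 bp. It held 15 untreated peaks over 20082 bp and 11 DHT peaks over 12096 bp, and its ratio was the lowest of the 17. Of the 11 DHT peaks, 6 lay wholly inside an untreated one. The widest, from 33245183 to 33248815, reached beyond its untreated counterpart, which ran from 33245985 to 33248892 with a score of 54.2, at percentile 9.47 of its list. The class III block from 31746659 to 31771340 held 4 untreated peaks over 5581 bp and 8 DHT peaks over 11017 bp. Most of the difference lay in its first DHT peak, from 31746659 to 31751867, the widest member of either list at 5209 bp. An untreated peak overlapped 226 bp of it, and its score of 87.1 was at percentile 51.2 of the DHT list. In class I the most covered block by that sum, from 31110158 to 31133307, had 6320 bp covered in untreated cells and 7707 bp in treated ones. In untreated cells alone, the class III block from 31601077 (7897 bp) and the class I block from 30152319 (7128 bp) were the most covered of their divisions.

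**Figure D5:**
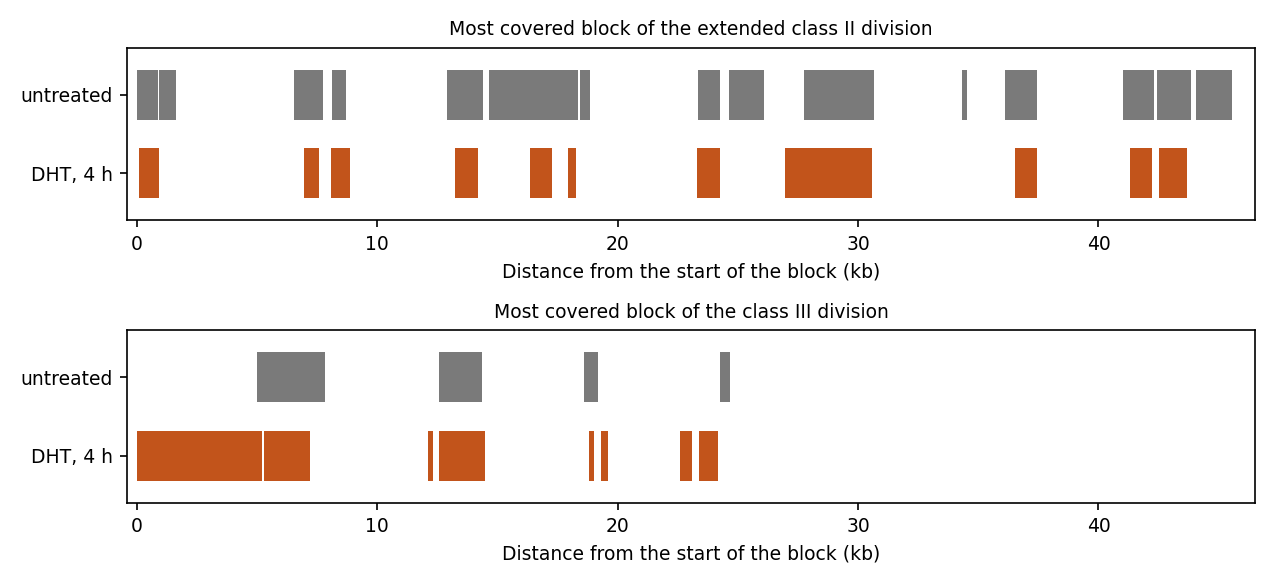
Peaks of each library along the block with the largest summed coverage of both libraries in the extended class II end (top) and in class III (bottom), against distance from the start of the block (kb). In the upper block 6 of 11 DHT peaks lie wholly within wider untreated ones, and in the lower block a wide DHT peak at the start has almost no untreated counterpart.

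By windows of 100 kb, 28 of 38 were less covered after DHT, 8 more covered and 2 without peaks in either library. The 28 were 77.8% of the 36 windows with a peak, against 49.2% of such windows in the genome. At least 10 kb was covered in either library in 11 of them. Of these, 1 was 1.5-fold higher after DHT, against a background of 14.4%, and none was 1.5-fold lower, against 5.34%. The 10 kb were reached in both libraries in 7 of the 11, in untreated cells alone in 3 and after DHT alone in 1. That last one was the window past 1.5-fold, so it passed through the library in which it was higher. The largest differences towards more coverage after DHT were from 7.19% to 11.03% in the class I window from 31100001, from 14.1% to 17.3% in the class III window from 31700001, and from 13.0% to 16.0% in the class III window from 31800001. The first of these was the window past 1.5-fold, and none passed 2-fold. The largest differences towards less coverage were from 26.9% to 18.2% in the window from 33200001, a difference of -8.78 percentage points, from 19.8% to 14.7% in that from 31600001, and from 20.5% to 15.8% in that from 30500001. These windows were the most covered of the extended class II end, class III and class I in untreated cells. A difference in points towards less coverage cannot exceed the untreated coverage, so this ranking favours such windows. Their ratios were 0.674, 0.746 and 0.773, and some sparser windows had lower ones, such as 0.458 in that from 30000001.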

How the data were processed

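H3K36me3 ChIP-seq of LNCaP cells gave 2 libraries with files, untreated and DHT-treated, and an input library that was not analysed here. For each, the authors deposited a BED list in which every peak has a score. MACS called them on each library separately, per the peak names in the deposited files. The scale of the score (50 to 3100), the settings, the control and the aligner are not stated in those sources. The build, hg19, comes from the deposited files' names. Its main assembly carries 1 MHC haplotype, and how reads of other alleles were placed is not stated either.

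Peaks within a list do not overlap. Overlap was at least 1 bp and was counted with NumPy 2.4.6 and pandas 2.3.3 under Python 3.11.15. For MHC peaks overlapped by the other list, bedtools 2.31.1 gave the same counts, 145 untreated and 163 DHT peaks. Other counts were not checked with it. Windows and tiles start at position 1 of each chromosome. Shares carry 95% Wilson intervals. Ratios of lengths carry log-scale intervals that sum squared peak widths as a Poisson variance. In tests with known answers, mostly on 5000 simulated peaks, 9 of 9 were recovered. In a separate simulation of independent peaks, 94% of 400 ratio intervals held the true value. That simulation had no clustered peaks and no sites shared between lists, so it does not give the coverage for these lists.

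Named regions are the most covered block, the widest and highest-scoring peak of each list per division, the 5 longest empty stretches, and the windows with the most and least coverage and the 3 largest differences each way. Blocks were ranked by the summed length of both libraries, and the minimum on their mean was chosen after the data were seen. Other regions were named after their values were seen. The members and lists were chosen with earlier results of these data known. Gene bodies and cell type markers, which had been planned, need an hg19 annotation and were not analysed. Alternatives were other score limits, joining, stricter overlap, shifted boundaries, and other folds and window lengths.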

Additional observations from a re-analysis of the deposited data

How the results depend on the processing

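No paired analysis was possible because each condition has 1 library. Results on wide peaks, edges and pairs, with their alternatives, were chosen after the data were seen. Over 7 settings each, the covered length ratio of the whole MHC stayed between 0.740 and 0.975, that of class III between 0.661 and 0.982 and that of the extended class II end between 0.690 and 0.849. All these intervals, as the reported ones, include 1. The peak number ratio of the MHC ran from 1.02 to 1.16, and that of class II was 1.5 at scores of at least 100. The ratio for peaks of at least 2 kb ran from 0.473 to 0.508 over other list limits and boundaries, and was 0.570 for peaks of at least 1.5 kb and 0.422 for those of at least 3 kb. At scores of at least 100 the edge ratio was 0.116 and the share of pairs with a narrower DHT peak 85.7%. Joined at 1 kb this share was 67.6%. Joined at 5 kb it was 60.0%, the edge ratio was 0.841, and 77.9% of untreated and 80.2% of DHT peaks were overlapped. With 50% of the peak covered required, 54.7% of untreated peaks counted as overlapped, and in both directions 48.0% of untreated and 41.4% of DHT peaks did. Blocks past 2-fold, 0 higher and 0 lower, became 1 and 2 in the higher-scoring 50% of each list, 1 and 1 when joined at 1 kb, and 0 and 1 at 10 kb. Windows past 1.5-fold, 1 higher and 0 lower, became 0 and 1 in windows of 50 kb, 1 and 3 in the higher-scoring 50%, and 0 and 0 at 2-fold. No genome value was computed under these settings, so the backgrounds given above hold only for the main one. Block and window counts under these settings rest on 4 to 19 blocks and 7 to 11 windows. The cause of these differences was not tested. The lists give no read numbers, so the depth that limits each peak is unknown.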
